A study of Mus musculus with 19 samples.

Results

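AP20187 acts on macrophages and related myeloid cells of MaFIA mice (macrophage Fas-induced apoptosis), and this account concerns whether its effect on the dorsal root ganglia differed between mice with knee surgery and mice without. The contrast was the log2 difference between AP20187 and vehicle after surgery, minus the same difference in naive mice. It used all 19 libraries of the series and 21840 genes, of which 26 (0.119%) passed the threshold, an adjusted p under 0.05. A positive value means that AP20187 moved a gene upward, relative to vehicle, more after surgery than in naive mice, and a negative value the reverse.

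All 19 mice were male and homozygous for the MaFIA transgene, so vehicle mice carried it too. Surgery was destabilization of the medial meniscus (DMM), which brings on osteoarthritis of the knee. The groups were DMM with AP20187 (mice 58 to 62, n = 5), DMM with vehicle (mice 32 to 34, 63 and 64, n = 5), naive with AP20187 (mice 1, 3, 4 and 5, n = 4) and naive with vehicle (mice 1 to 5, n = 5). AP20187 or vehicle was injected into the abdomen daily for 5 days, 8 weeks after surgery or in naive mice of matching age, and L3 to L5 ganglia of 1 mouse and 1 side formed a library of polyadenylated RNA. The labels name no sham surgery, no batch and no dose.

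Dorsal root ganglia hold the cell bodies of sensory neurons, their satellite glia, Schwann cells, vessels and resident macrophages. The MaFIA transgene puts a death receptor domain that AP20187 can pair up under the promoter of Csf1r, the receptor for the macrophage growth factor. An interaction contrast asks whether a treatment effect depends on a second condition, and it carries the error of all 4 groups. In bulk tissue, fewer cells of a type and less RNA per cell cannot be told apart.

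The tissue label was checked against 8 genes of sensory neurons, whose lowest value in any library was 7.32 CPM (counts of a gene scaled to the size of the library) and whose sum ran from 918 to 4339 CPM. Libraries held 60984830 to 74691396 counts. The second principal component of log2 CPM, with 9.24% of the variance, put the 4 naive AP20187 libraries at -86.4 to -62.8 and the other 15 at -25.6 to 49.6. The skeletal muscle list summed to 3151 CPM in DMM vehicle 32, against a median of 239.8 in its group, and the muscle genes described singly are given without it too. Replicates were separate mice, and p-values measure the spread between them.

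Few genes passed the interaction, and most estimates were small beside their error. Of all genes, 56.8% had a negative estimate and the median was -0.08. An unadjusted p under 0.05 was found for 1691 genes (7.74%). Of the 26 genes that passed, 11 (0.0504% of genes) were positive and 15 (0.0687%) negative. The median standard error was 0.49 log2 units for the interaction, 0.34 for the AP20187 effect in DMM mice and 0.36 for that in naive mice.

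The effect of AP20187 itself was broad in each arm. It passed for 5386 genes (24.7%) in DMM mice and for 2505 genes (11.5%) in naive mice. Leaving out 1 library gave 3212 to 7623 genes in DMM mice and 964 to 3403 in naive mice, so the shares below are loose. The arms share no library with each other, and both share their libraries with the interaction. The number passing in both arms was 1569 (7.18%), which is 29.1% of the DMM set and 62.6% of the naive set, and 1552 of them had the same sign. Across genes, which are not independent replicates, the log2 fold changes of the arms had a Pearson r of 0.50 and a Spearman rho of 0.63.

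A gene that passed in a single arm seldom passed the test of the difference. Of 3817 genes that passed only in DMM mice, 1 passed the interaction (Myh6), and of 936 that passed only in naive mice, 15 did. Of the 17 genes that passed in both arms with opposite signs, 10 passed the interaction. Of the 1552 with the same sign, 0 passed it by edgeR's test. All 26 therefore passed in at least 1 arm.

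**Figure D1:**
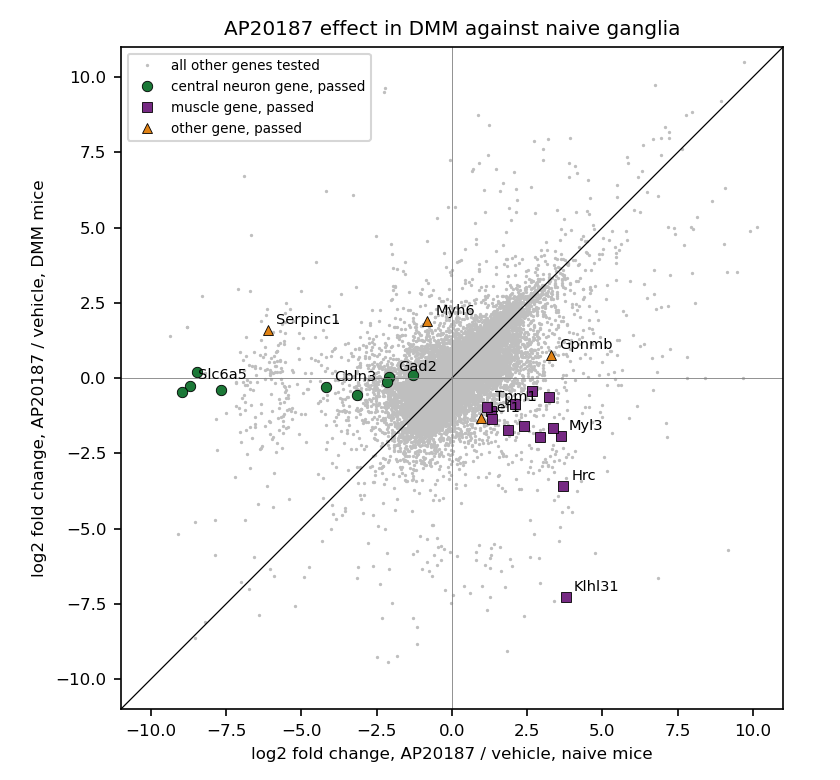
Log2 fold change of AP20187 against vehicle in naive mice (horizontal axis) and in DMM mice (vertical axis), 1 point per gene tested, with the diagonal of equal effects. The 9 central neuron genes that passed the interaction lie to the left, near 0 on the vertical axis, and the 13 muscle genes lie to the right below 0.

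The 26 genes fell into 2 groups with few others, a grouping made after their values were seen. There were 9 genes best known from neurons of the brain and spinal cord, all with a positive interaction, and 13 genes of muscle with a negative one. The remaining 4 were Myh6, which is a further muscle gene and was set apart because its interaction was positive, and Serpinc1, Lef1 and Gpnmb. The shape of each interaction was described by which group had all of its libraries outside the range of every other library. Naive AP20187 lay below all others for 10 of the 26 genes and above all others for 7. Over all genes tested these shapes were held by 0.316% and 0.389%. The 26 were picked by a contrast of the same libraries, so these shares are a background and not a test. DMM AP20187 lay below all others for 2 genes (0.325% over all genes) and above for 1 (1.14%), while 6 genes had no group apart. Neither vehicle group stood apart for any of the 26, and over all genes naive vehicle did so for 0.0183% (above) and 0.0137% (below) and DMM vehicle for 0.00916% (above).

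**Figure D2:**
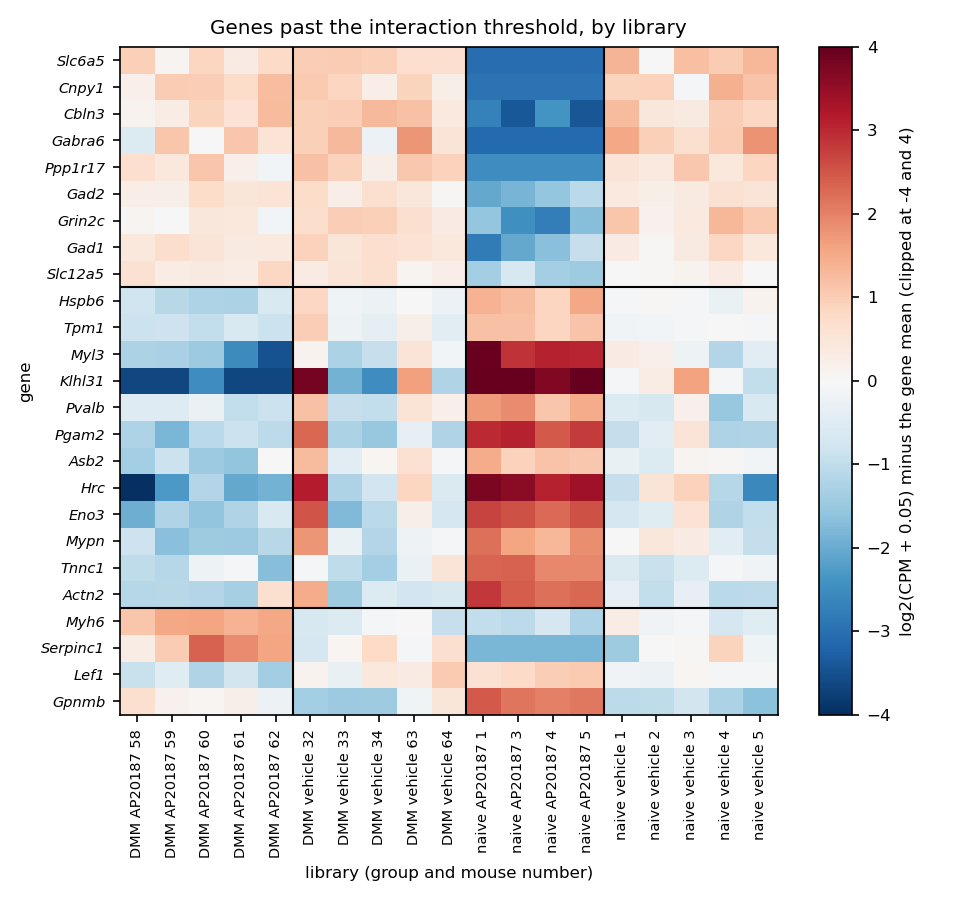
Level of 25 of the 26 genes (rows) in the 19 libraries (columns, by group and mouse number), as log2(CPM + 0.05) minus the mean of the gene, with colours clipped at -4 and 4. Horizontal lines divide 9 central neuron genes, 12 muscle genes and 4 others. The 4 naive AP20187 columns are low in the upper block and high in the middle block, and DMM vehicle 32 is high in much of the middle block.

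The positive interactions were led by genes of inhibitory and cerebellar neurons. Each of the 9 fell in naive mice with AP20187, where 2.62% of all genes were lower. The 9 were picked by a contrast that uses these same libraries, so a fall there was partly built into the choice. In DMM mice, where 24.7% of all genes passed, 0 of the 9 passed by edgeR's test, and the lowest adjusted p was 0.192 (Grin2c). In the other 3 groups their means ran from 0.351 CPM (Ppp1r17 in the DMM AP20187 libraries) to 7.95 CPM (Slc12a5 in the same group).

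Slc6a5 encodes the glycine transporter GlyT2 of glycinergic neurons (chr7:49559894-49613604, plus strand, GRCm39). It was at 0.747, 0.399, 0.709, 0.467 and 0.652 CPM in the DMM AP20187 libraries and at 0.776, 0.78, 0.76, 0.609 and 0.61 in the DMM vehicle libraries. It had 0 counts in all 4 naive AP20187 libraries and 1.01, 0.359, 0.912, 0.795 and 0.981 CPM in the naive vehicle libraries. Naive AP20187 lay wholly apart, while the other 3 groups overlapped. Against a floor of 3 counts per library, the naive vehicle mean was at least 16-fold higher than naive AP20187, and the interaction was at least 13.5-fold (adjusted p = 0.000343).

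Counts of 0 in all 4 naive AP20187 libraries were also seen for Cnpy1, Gabra6 and Ppp1r17. Gabra6 encodes the alpha 6 subunit of the GABA-A receptor, which marks cerebellar granule cells, and had 46 to 108 counts in naive vehicle libraries and 16 to 94 in DMM libraries. Cnpy1, a Canopy family member of the midbrain and hindbrain border, had 24 to 60 counts in naive vehicle and 26 to 50 in DMM AP20187 libraries. Ppp1r17, a protein phosphatase inhibitor of Purkinje cells, had 20 to 40 counts in naive vehicle and 12 to 36 in DMM AP20187 libraries. In each of the 3 genes, naive AP20187 was apart from all 15 other libraries. The interaction was at least 15.5-fold for Cnpy1 (adjusted p = 0.000343), 13.8-fold for Gabra6 (adjusted p = 0.00212) and 5.85-fold for Ppp1r17 (adjusted p = 0.00219).

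Cbln3, a cerebellin of granule cells (chr14:56116370-56121849, minus strand), was low but detected in naive mice with AP20187, at 0.139, 0.0681, 0.186 and 0.065 CPM. It was at 2.91, 1.65, 1.52, 2.4 and 2.12 CPM in the naive vehicle libraries. DMM mice had 1.3, 1.46, 2.25, 1.79 and 2.93 CPM with AP20187 and 2.34, 2.4, 2.94, 2.71 and 1.56 with vehicle. The DMM groups and naive vehicle overlapped, and naive AP20187 was below them all. AP20187 gave a log2 fold change of -4.19 in naive mice and of -0.30 (adjusted p = 0.527) in DMM mice, with an interaction of 3.89 ± 0.49 (SE, adjusted p = 0.00172).

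The enzymes that make GABA from glutamate, Gad2 and Gad1, showed the same shape. Gad2 (chr2:22512217-22583886, plus strand) was at 0.523, 0.596, 0.76 and 1.06 CPM in the naive AP20187 libraries and at 3.01, 2.72, 2.99, 3.54 and 3.33 in the naive vehicle libraries. In DMM mice it was at 2.81, 2.75, 3.89, 3.21 and 3.36 CPM with AP20187 and at 3.83, 2.81, 3.63, 3.17 and 2.38 with vehicle. The DMM groups overlapped naive vehicle, and naive AP20187 was below them all. The interaction was 2.10 ± 0.32 (SE, adjusted p = 0.00731), with a 95% interval of 1.42 to 2.77, and Gad2 passed under all 31 alternative analyses. Gad1 averaged 1.4 ± 0.776 CPM (SD, n = 4) in the naive AP20187 libraries and 6.28 ± 1.25 (n = 5) in the naive vehicle libraries, with an interaction of 2.03 (adjusted p = 0.0405).

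The other members of this group were Grin2c, an NMDA receptor subunit of cerebellar granule cells, and Slc12a5, the neuronal chloride exporter KCC2. Grin2c lay at 0.101 to 0.296 CPM in naive AP20187 and at 0.892 to 2.5 CPM elsewhere, with an interaction of 2.60 (adjusted p = 0.0347). Slc12a5 lay at 2.07 to 3.56 CPM in naive AP20187 and at 5.63 to 10.1 CPM elsewhere, with an interaction of 1.40 (adjusted p = 0.0471). These 2 genes and Gad1 were the least settled. Leaving out a single library ended the call of Gad1 in 17 of 19 cases, of Slc12a5 in 17 and of Grin2c in 12, with adjusted p up to 0.12, 0.137 and 0.094.

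**Figure D3:**
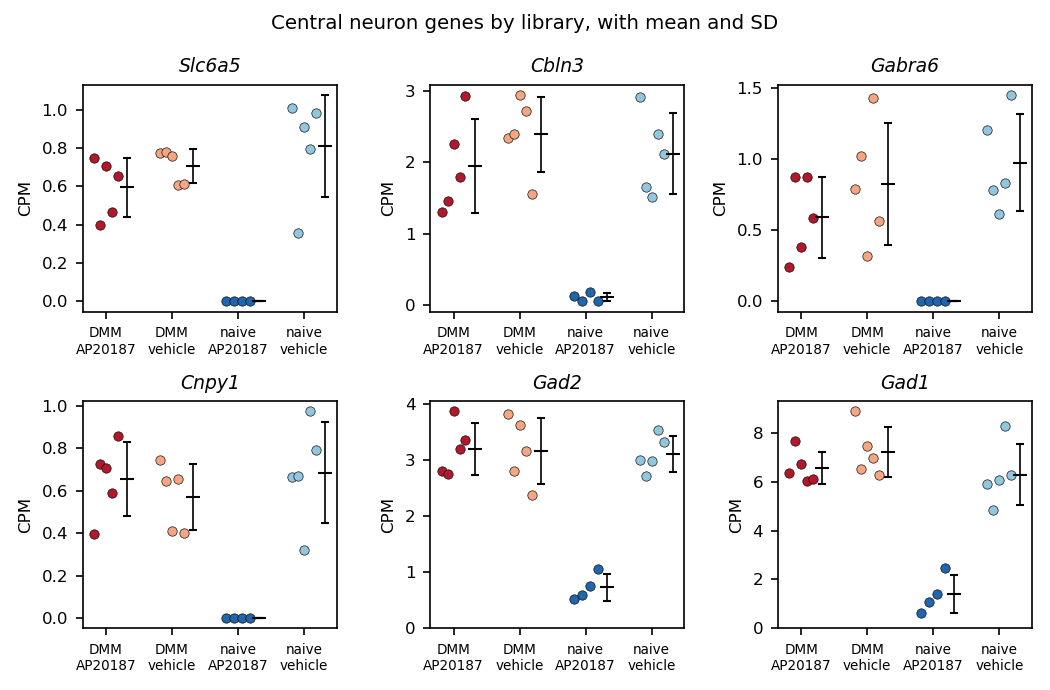
CPM of 6 central neuron genes in each library (points) of the 4 groups, with the mean and SD beside them on linear axes. Slc6a5, Gabra6 and Cnpy1 are at 0 in all 4 naive AP20187 libraries, and all 6 genes are lower there than in every other library.

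Members of the central neuron list differed from each other. Of its 20 genes, 4 passed with a positive interaction (Slc6a5, Gabra6, Gad2 and Gad1), where 0.0504% of all genes did. The list median was 0.87 against -0.08 over all genes. Slc32a1, the vesicular transporter of GABA and glycine, had an interaction of 1.90 and missed the threshold (adjusted p = 0.053). Camk2a, a kinase abundant in forebrain neurons, had an interaction of -0.40 (adjusted p = 0.945), and Slc17a7, a vesicular glutamate transporter also used by sensory neurons, of -0.73 (adjusted p = 0.915). A list of 15 cerebellar neuron genes, written after the values were seen, had 6 genes past the threshold and a median of 2.60, or 2.08 with genes at 0 set to their bound. It was written with those 6 calls known, so their count was partly built into the choice. Its other members did not pass and ran from -1.03 (Grm4) to 6.80 (En2), with Cbln1 at 0.01, Zic1 at 0.03 and Car8 at 0.15. Its summed level overlapped in naive mice, with medians of 78.8 CPM with AP20187 and 79.7 CPM with vehicle. Its mean log2 CPM did not overlap there, at -2.05 to -1.74 with AP20187 and 0.40 to 0.95 with vehicle. Of the 14 genes of central oligodendrocytes and astrocytes, 0 passed by edgeR's test, 3 had an unadjusted p under 0.05 (7.74% of all genes), and the median was 0.32. Their estimates were split, with 7 positive (up to 1.84 for Mog) and 7 negative (down to -1.07 for Gjb6). In naive mice 3 of the 14 were lower and 0 higher, with a median of -0.72 (2.62% of all genes were lower). In DMM mice 1 was lower and 0 higher, with a median of -0.22 (12.9% of all genes were lower).

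The negative interactions were led by muscle genes, which encode parts of the sarcomere, its calcium handling and its energy supply. All 13 rose in naive mice with AP20187 (8.85% of all genes were higher there), and 9 of the 13 fell in DMM mice with AP20187 (12.9% of all genes were lower there). The 13 were picked by the difference between these arms, so such moves were partly built into the choice. The fall in DMM mice rested in part on DMM vehicle 32: without it 4 of the 13 passed as lower, 12 of 13 estimates were negative and their median was -0.84. Over all genes in that setting, 7.01% passed as lower, 55.6% of estimates were negative and the median was -0.10. In the naive AP20187 group alone, 6 of the 13 stood above every other library. Striated muscle lies beside the ganglia, and its part in these values was not tested.

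Hspb6, a small heat shock protein of muscle (chr7:30251603-30254865, plus strand), was at 17, 15.5, 11.9 and 19 CPM in the naive AP20187 libraries and at 6.38, 6.79, 6.32, 5.42 and 7.21 in the naive vehicle libraries. DMM mice had 3.7, 2.97, 2.76, 2.67 and 4.24 CPM with AP20187 and 11.5, 5.73, 5.49, 6.61 and 5.53 with vehicle. AP20187 libraries were thus below all vehicle libraries after surgery and above them all in naive mice. The log2 fold change was -1.09 (adjusted p = 0.00248) in DMM and 1.30 (adjusted p = 0.00201) in naive mice, and the interaction was -2.39 ± 0.31 (SE, adjusted p = 0.00212). Without DMM vehicle 32 it was -2.14.

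Tpm1, a tropomyosin of the thin filament (chr9:66929872-66956549, minus strand), also differed in both arms. It was at 165, 166, 149, 194 and 165 CPM in the DMM AP20187 libraries and at 585, 259.7, 228, 352 and 219.6 in the DMM vehicle libraries. Naive mice had 668, 668, 538 and 654 CPM with AP20187 and 271, 274, 288, 292 and 279 with vehicle. DMM AP20187 was below every other library, and of the vehicle libraries only DMM vehicle 32 reached the naive AP20187 range. The interaction was -2.14 ± 0.31 (SE, adjusted p = 0.00407), and -1.83 without DMM vehicle 32. Tpm1 is also made in fibroblasts, vessels and other cells.

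Myl3, the light chain of slow and cardiac myosin (chr9:110570929-110598866, plus strand), was at 8.61, 4.07, 4.63 and 4.55 CPM in the naive AP20187 libraries and at 0.649, 0.593, 0.429, 0.195 and 0.363 in the naive vehicle libraries. DMM mice had 0.183, 0.177, 0.154, 0.0452 and 0 CPM with AP20187 and 0.559, 0.18, 0.243, 0.746 and 0.461 with vehicle. Here DMM vehicle 32 was within the range of its group. The interaction was -5.55 ± 0.85 (SE, adjusted p = 0.00731), and -5.45 without DMM vehicle 32. Tnnc1, the slow and cardiac troponin C, likewise lay at 3.55 to 4.84 CPM in naive AP20187 and at 0.24 to 1.32 CPM elsewhere, with an interaction of -3.09 (adjusted p = 0.0347). Tnnc1 no longer passed without DMM vehicle 32 (-3.02, adjusted p = 0.0654).

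Klhl31, a Kelch protein of muscle, was at 13.8, 9.88, 8.09 and 11.7 CPM in the naive AP20187 libraries and at 0.269 to 1.86 in the naive vehicle libraries. It had 0 counts in 4 of 5 DMM AP20187 libraries and 4 in the other, and ran from 0.0608 to 8.81 CPM in DMM vehicle, highest in mouse 32. Its interaction passed (adjusted p = 0.011), but the fitted size depends on the prior count for a group so near 0. Leaving out DMM AP20187 60, the library with those counts, gave an adjusted p of 0.0501. Klhl31 passed without DMM vehicle 32, with a fitted value of -9.11 (adjusted p = 0.00831).

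The remaining muscle genes were those of metabolism, calcium handling and the Z disc. Eno3 and Pgam2, muscle forms of glycolytic enzymes, had interactions of -4.90 and -5.01, and each became -3.52 without DMM vehicle 32. Eno3 was at 92.9 to 126 CPM in the naive AP20187 libraries, at 110.4 CPM in DMM vehicle 32 and at 4.91 to 28.9 CPM in all other libraries. Hrc, a calcium-binding protein of the sarcoplasmic reticulum, had an interaction of -7.28 and of -5.74 without that library. Pvalb, the calcium buffer parvalbumin, had -2.94 and -2.57, and is also made by large sensory neurons. Asb2, a ubiquitin ligase subunit, had -2.70 and -2.37, Mypn, or myopalladin, -3.59 and -2.81, and Actn2, the Z disc actinin, -3.83 and -2.97. Each of these passed with and without DMM vehicle 32. By edgeR's test, leaving out single libraries ended the calls of Eno3, Pgam2, Hrc, Pvalb, Asb2, Mypn, Actn2 and Tnnc1 in 11 to 14 of 19 cases, with adjusted p of 0.0501 to 0.12.

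**Figure D4:**
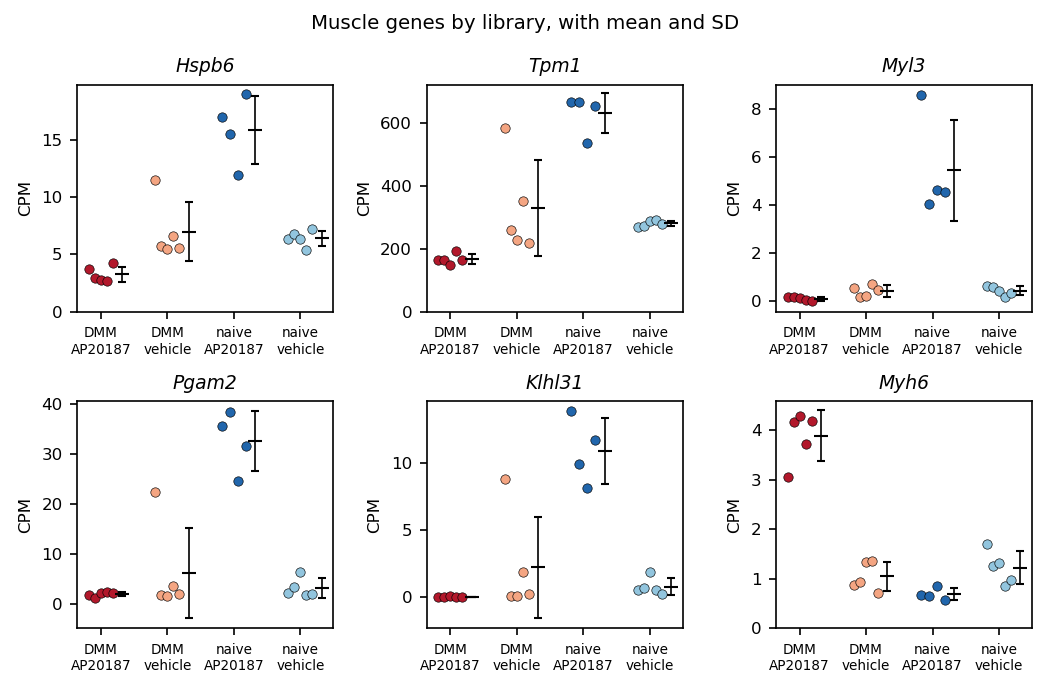
CPM of 5 muscle genes with a negative interaction and of Myh6 in each library (points) of the 4 groups, with the mean and SD beside them on linear axes. The first 5 genes are highest in naive AP20187, with 1 high DMM vehicle library (mouse 32) in 4 of them, and Myh6 is highest in DMM AP20187.

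The list of 20 skeletal muscle genes had 20 of 20 interaction estimates negative and 20 of 20 unadjusted p under 0.05 (56.8% and 7.74% over all genes). Of these, 2 passed (Pvalb and Eno3), where 0.0687% of all genes passed as negative, and the median interaction was -6.01. Without DMM vehicle 32 the median was -4.01. In the DMM arm alone, 7 of the 20 genes were lower and 1 higher, with a median of -2.60 (12.9% and 11.8% of all genes, with a median of -0.10). Without DMM vehicle 32 the counts by edgeR's test were 0 and 1 and the median -0.59 (7.01% and 8.6% of all genes, with a median of -0.10). The summed level of the list was 2750.5 to 4212 CPM in the naive AP20187 libraries, 84.9 to 768 in the naive vehicle libraries and 89.4 to 278 in the DMM AP20187 libraries. In DMM with vehicle it was 3151, 85.2, 77.1, 525 and 239.8 CPM. The fast fibre genes Tnnc2, the fast troponin C (-7.92, adjusted p = 0.0519), and Myh4, a fast myosin (-7.69, adjusted p = 0.155) did not pass. Without DMM vehicle 32, which had 93.4 CPM of Tnnc2 and 471 CPM of Myh4 against at most 14.4 and 40.6 CPM in the rest of its group, they were at -5.76 (adjusted p = 0.071) and -4.75 (adjusted p = 0.378). Of the 11 genes with an adjusted p from 0.05 to 0.1, 9 had negative estimates, and these were Tnnc2, Casq1, Vgll2, Neb, Myl1, Tmem182, Apobec2, Ttn and Ryr1.

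The muscle genes that moved together were searched for sites of muscle transcription factors in the 250 bases before their start in RefSeq (GRCm38.p6), where 12 of the 13 were found. MEF2 sites are bound by myocyte enhancer factors, CArG boxes by serum response factor and CAGCTG by myogenic basic helix-loop-helix proteins, on both strands. A MEF2 site was found in 2 of the 12 (3.42% of 27025 genes), a CArG box in 2 (1.62%) and CAGCTG in 2 (14.7%). These 4 stretches of 200 bases up to the start are shown because they hold the MEF2 and CArG matches, read 5′ to 3′ on the strand of the gene, with matches in capitals. They lie at chr12:103356002-103356201 (minus strand) for Asb2, chr9:110763478-110763677 (plus) for Myl3, chr11:5803797-5803996 (minus) for Pgam2 and chr15:78206401-78206600 (minus) for Pvalb.
Asb2: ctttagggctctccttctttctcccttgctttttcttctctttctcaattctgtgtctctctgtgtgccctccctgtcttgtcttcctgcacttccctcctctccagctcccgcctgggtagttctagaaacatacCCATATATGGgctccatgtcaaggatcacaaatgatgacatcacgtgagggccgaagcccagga
Myl3: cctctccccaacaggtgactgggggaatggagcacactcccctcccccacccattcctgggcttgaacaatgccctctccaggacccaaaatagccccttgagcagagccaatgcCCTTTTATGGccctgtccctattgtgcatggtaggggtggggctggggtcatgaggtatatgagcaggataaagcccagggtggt
Pgam2: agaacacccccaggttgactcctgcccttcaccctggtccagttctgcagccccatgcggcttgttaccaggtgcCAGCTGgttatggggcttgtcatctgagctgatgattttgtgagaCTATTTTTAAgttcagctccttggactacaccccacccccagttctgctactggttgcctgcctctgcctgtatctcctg
Pvalb: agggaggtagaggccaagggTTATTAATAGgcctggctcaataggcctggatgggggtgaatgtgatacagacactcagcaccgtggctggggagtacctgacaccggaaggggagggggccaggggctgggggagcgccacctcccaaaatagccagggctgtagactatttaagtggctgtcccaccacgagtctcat
The capitals are a CArG box in Asb2 and Myl3, CAGCTG and then a MEF2 site in Pgam2, and a MEF2 site in Pvalb. A match describes the letters and not binding.

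Myh6, the alpha heavy chain of cardiac myosin (chr14:55179378-55204098, minus strand), had a positive interaction, where the 13 muscle genes above had negative ones. It was at 3.06, 4.18, 4.29, 3.72 and 4.2 CPM in the DMM AP20187 libraries and at 0.884, 0.945, 1.34, 1.37 and 0.714 in the DMM vehicle libraries. Naive mice had 0.68, 0.647, 0.862 and 0.569 CPM with AP20187 and 1.71, 1.25, 1.33, 0.86 and 0.981 with vehicle. DMM AP20187 was above every other library. The log2 fold change was 1.89 (adjusted p = 0.000158) in DMM and -0.83 (adjusted p = 0.0558) in naive mice, the interaction was 2.71 ± 0.38 (SE, adjusted p = 0.00263), and it passed under all 31 alternatives, with 2.66 without DMM vehicle 32. Of 15 cardiac and slow muscle genes tested, a list written after the values were seen, 1 passed as positive (Myh6) and 2 as negative, 4 of 15 estimates were positive and the median was -1.25. Of this list, Myh7, the slow and cardiac myosin chain encoded next to Myh6, rose in both arms (2.70 in DMM, adjusted p = 0.000267, and 4.38 in naive mice, adjusted p = 1.37e-05) and its interaction did not pass (-1.69, adjusted p = 0.352, or -1.90 with adjusted p = 0.252 without DMM vehicle 32).

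Lef1, a transcription factor of Wnt signalling that is also active in early B and T cells (chr3:130904120-131018005, plus strand), fell after surgery and rose in naive mice. It was at 1.27, 1.68, 1, 1.43 and 0.875 CPM in the DMM AP20187 libraries and at 2.62, 1.95, 3.22, 3.01 and 5.04 in the DMM vehicle libraries. Naive mice had 3.7, 4.07, 4.82 and 5.03 CPM with AP20187 and 2.15, 2.03, 2.55, 2.29 and 2.32 with vehicle. In each arm the AP20187 libraries did not overlap the vehicle libraries. The interaction was -2.29 ± 0.36 (SE, adjusted p = 0.00863). Of 10 early B lineage genes tested, Lef1 was the 1 that passed, and the list medians, Lef1 included, were -2.21 in DMM and -1.51 in naive mice. In DMM mice 6 of the 10 were lower and 1 higher (12.9% and 11.8% of all genes). In naive mice 4 were lower and 2 higher (2.62% and 8.85% of all genes). Whether the other members differ from Lef1 was not tested.

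Gpnmb, a transmembrane glycoprotein of macrophages that take up lipid or debris (chr6:49013480-49047863, plus strand), rose in naive mice. It was at 99.9, 81, 73.1 and 79.1 CPM in the naive AP20187 libraries and at 8.83, 9.07, 10.8, 7.61 and 5.84 in the naive vehicle libraries. DMM mice had 28.3, 20.6, 19.1, 21.6 and 15.3 CPM with AP20187 and 7.07, 6.68, 6.74, 16 and 25.2 with vehicle. The DMM vehicle mice split by number, with 63 and 64 within the DMM AP20187 range and 32 to 34 below it. The interaction was -2.54 ± 0.46 (SE, adjusted p = 0.0347), and it lost its call when 1 of 12 of the 19 libraries was left out (adjusted p up to 0.0903). Of 14 lipid-associated macrophage genes, a list written after the values were seen, Gpnmb was the 1 that passed, and the median was -0.42.

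Serpinc1, which encodes antithrombin, a liver product, was at low counts. It had 0 counts in the naive AP20187 libraries, 1 to 17 in the naive vehicle libraries, 4 to 17 in the DMM vehicle libraries and 11 to 56 in the DMM AP20187 libraries. Its interaction passed (adjusted p = 0.0347) but was lost when 1 of 14 of the 19 libraries was left out.

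Csf1r, Adgre1 and Cd68, which the targeted cells express, did not pass the interaction. Csf1r was at 103, 105, 76.4, 33 and 30.9 CPM in the DMM AP20187 libraries and at 34, 32.9, 49.1, 88.8 and 148 in the DMM vehicle libraries. It was at 58.2, 87.6, 71.9 and 61.9 CPM in the naive AP20187 libraries and at 51.2, 36.7, 98.8, 50.1 and 19.3 with vehicle, so that all 4 groups overlapped. Its interaction was -0.47, with a 95% interval of -1.87 to 0.93 (adjusted p = 0.938), so that a difference in either direction was not excluded. Adgre1, which encodes F4/80, had an interaction of -0.36 (interval -1.94 to 1.23, adjusted p = 0.96), and Cd68, a lysosomal protein of macrophages, of -1.08 (interval -2.44 to 0.29, adjusted p = 0.777). Reads of Csf1r do not report the transgene, which was not analysed here.

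Most gene lists had no member past the interaction threshold, namely 36 of 40. Granulocyte, mitosis and B cell lists had medians of the same sign in both arms. The 17 mature neutrophil genes tested had medians of 2.79 in DMM and 3.49 in naive mice, with 12 and 13 genes past the threshold as higher (11.8% and 8.85% of all genes were higher). Their median interaction was -0.75, with 16 of 17 estimates negative (56.8% over all genes). It ran from -1.04 (without naive vehicle 4) to 0.18 (without DMM vehicle 64) on leaving out 1 library. The 11 primary granule genes, made by granulocyte precursors, had medians of 3.20 and 3.12 and a median interaction of 0.01. All 11 passed in both arms, where 7.18% of all genes did. Of 16 mitosis genes, 16 rose in DMM and 13 in naive mice (11.8% and 8.85% of all genes), with a median interaction of 0.39. B cell genes had medians of -3.50 and -2.92, with 9 and 6 of 11 lower (12.9% and 2.62% of all genes were lower). Leaving out 1 library moved the median interaction of the primary granule genes from -0.27 (without DMM vehicle 32) to 1.00 (without DMM vehicle 64), and that of the mitosis genes from 0.07 (without naive vehicle 4) to 0.85 (without DMM vehicle 64).

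More nociceptor, pan-neuronal and large fibre neuron genes were lower in the DMM arm than in the naive arm, as was also the case over all genes (12.9% against 2.62%). The central neuron list went the other way, with 2 of 20 lower in DMM and 7 in naive mice. Of 12 large fibre neuron genes, 4 fell in DMM and 0 in naive mice by edgeR's test. All 12 had a negative interaction estimate and 1 passed (Pvalb). Of 16 nociceptor genes, which mark pain-sensing neurons, 10 fell in DMM and 1 in naive mice, with medians of -1.67 and -0.91. Of 12 pan-neuronal genes, 9 fell in DMM and 0 passed in naive mice by edgeR's test, with medians of -1.33 and -0.71. No nociceptor or pan-neuronal gene passed the interaction, and their median interactions were -0.52 and -0.50, with 0 of 16 and 0 of 12 at an unadjusted p under 0.05. Leaving out 1 library moved these medians from -0.91 and -0.81 (both without DMM AP20187 61) to -0.30 and -0.18 (both without naive AP20187 5). All 12 myelinating Schwann cell genes had negative estimates, with a median of -0.69 and 2 at an unadjusted p under 0.05. Over all genes, 56.8% of interaction estimates were negative and 7.74% had an unadjusted p under 0.05.

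Lists of inflammation had negative medians without a gene past the threshold. Over all genes, 56.8% of interaction estimates were negative, 7.74% had an unadjusted p under 0.05 and the median was -0.08. All 18 interferon response genes had a negative estimate, with a median of -0.89 (-0.42 in DMM and 0.49 in naive mice), 8 at an unadjusted p under 0.05 and a lowest adjusted p of 0.476 (Ifit3, with -1.18). The summed level of that list was 374 to 543 CPM in the DMM AP20187 libraries, 343 to 863 in the DMM vehicle libraries, 439 to 530.0 in the naive AP20187 libraries and 272 to 473 in the naive vehicle libraries. The 10 inflammatory macrophage genes had a median of -1.66, with 4 at an unadjusted p under 0.05, led by Ccl3, a chemokine for leukocytes (-5.67, adjusted p = 0.202). The 12 epithelial genes tested had the highest median of the 40 lists, 2.88 (2.40 at the bound), with 4 at an unadjusted p under 0.05 and 0 past the threshold by edgeR's test. Their mean log2 CPM was 0.68, 0.19, 0.15, -1.14 and -1.41 in DMM AP20187 58 to 62 and -2.96 to -1.60 in DMM vehicle. Their summed level went the other way, with medians of 62.6 CPM in DMM AP20187 and 185 in DMM vehicle. Counts were 0 throughout DMM vehicle for 3 of these genes and throughout naive AP20187 for 2.

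**Figure D5:**
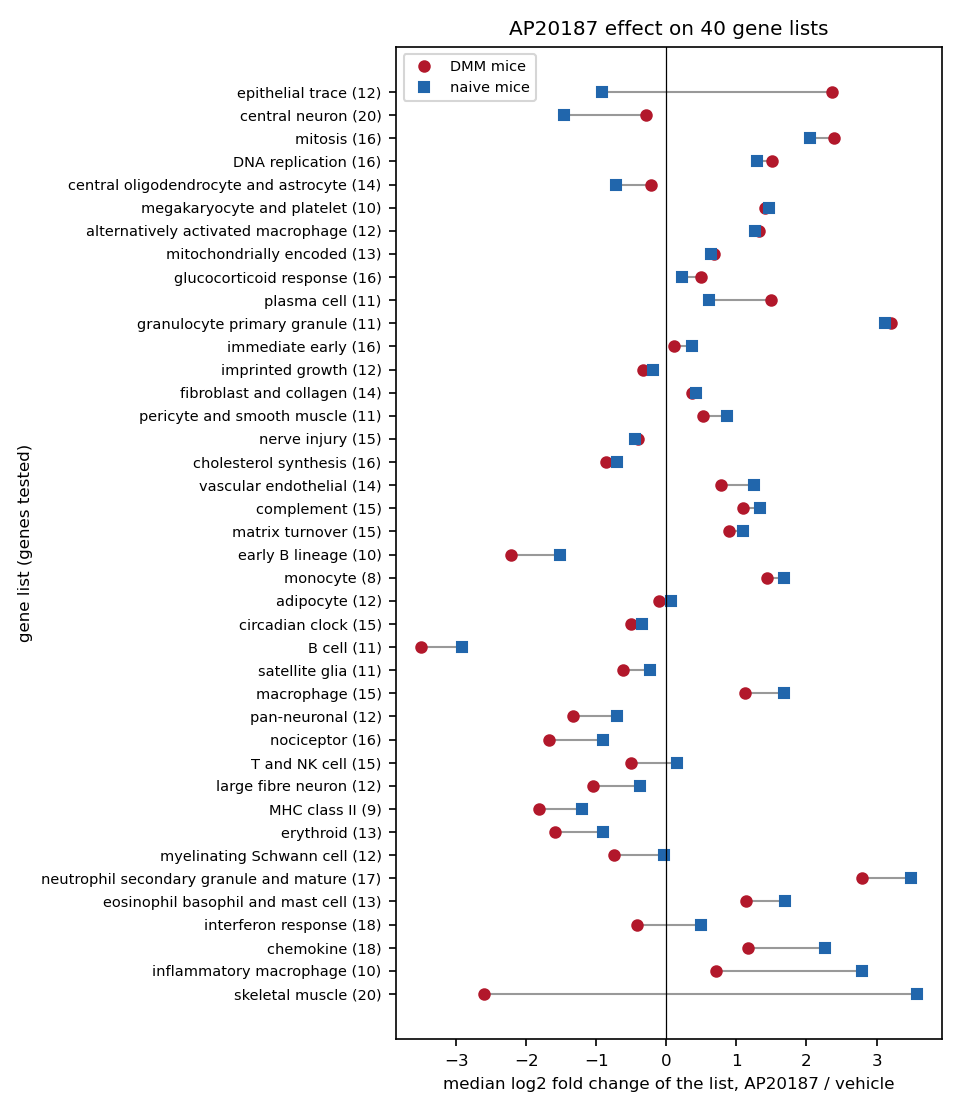
Median log2 fold change of AP20187 against vehicle in DMM mice (circles) and naive mice (squares) for each of 40 gene lists, ordered by the median interaction, with the number of genes tested in brackets. Granulocyte, mitosis and B cell lists lie far from 0 on the same side in both arms, and skeletal muscle lies at -2.60 in DMM (-0.59 without DMM vehicle 32) and 3.58 in naive mice.

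Some of the 26 genes overlap other listed genes. On the opposite strand this holds for 10 of them, such as Gad1 with Gad1os, Lef1 with Lef1os1, Myl3 with Pth1r and Hspb6 with Proser3. The kit keeps strand, but whether counting used it is not given in the sources used here, so reads of such pairs could be shared. On the same strand, Hspb6, Myh6 and Serpinc1 each overlap a further listed gene.

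How many genes passed depended on the DMM vehicle mice, which carry numbers in 2 series. With mice 63 and 64 alone as DMM vehicle, 96 genes passed, of which 82 were negative, and 22 of the 26 were among them. With mice 32 to 34 alone, 32 genes passed and 20 of the 26 were among them. Without DMM vehicle 32, 24 passed, 22 of them shared. Leaving out single libraries gave 12 to 56 genes. The labels give no batch, so a batch and a group cannot be told apart.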

How the data were processed

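RNA of pooled dorsal root ganglia from 19 mice was sequenced from stranded poly(A) libraries, per the labels. The submitters' processing notes name cutadapt, HISAT2, StringTie and GRCm39, without roles or versions; the annotation and the use of strand in counting are not given in the sources used here. Unnormalized whole-number counts were deposited by the authors for 56691 entries, and a second table whose FPKM values (scaled to length and depth by the authors) served an alternative. The 6448 entries without a gene name (0.414% to 1.72% of a library's counts) were left out of tests and library sizes.

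From these counts, edgeR 4.0.16 (R 4.3.3) fitted 1 coefficient per group to all 19 libraries (TMM normalization, filterByExpr with minimum count 10, 15 residual degrees of freedom) and tested contrasts by the two-sided quasi-likelihood F test. Benjamini-Hochberg adjustment ran over 21840 genes, with 0.05 as threshold. The floor was 3 counts per library, 0.0447 to 0.0507 CPM as a group mean; floors cover counting error only. Log2 values of genes with a group at 0 depend on the prior count, so bounds are given. Other scaling, filters, DESeq2 1.42.0, limma 3.58.1 (also on log2(FPKM + 1)), a replicate block and left-out libraries were alternatives. The fit was tested on simulated data, with interactions planted only in genes averaging at least 1 CPM and without an outlying library. It therefore does not speak for genes at lower levels or for odd libraries.

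Groups came from the labels. The contrast, the 40 gene lists and the alternatives were chosen with earlier results of these data known, and 3 further lists and the grouping of genes after the values were seen. Named genes were, among those past the threshold whose mean reached 1 CPM in some group, the 10 with the largest change and the 5 with the smallest p in each direction, up to 3 per list, and Csf1r, Adgre1 and Cd68. This covered 21 of the 26 genes, and the other 5 and further list members were named after their values were seen. The values of 1 muscle gene that passed are not reported here. Promoters came from RefSeq (GRCm38.p6); their coordinates are not those of the files' build.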

Additional observations from a re-analysis of the deposited data

Results flagged for a closer look

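The effect of AP20187 differed between DMM and naive mice, by edgeR's test of the difference itself, for 26 genes, 25 of which are given here. The interaction log2 fold change was 8.47 for Slc6a5, 8.67 for Cnpy1, 3.89 for Cbln3, 8.50 for Gabra6, 7.27 for Ppp1r17, 2.10 for Gad2, 2.60 for Grin2c, 2.03 for Gad1 and 1.40 for Slc12a5. It was -2.39 for Hspb6, -2.14 for Tpm1, -5.55 for Myl3, -11.06 for Klhl31, -2.94 for Pvalb and -5.01 for Pgam2. It was -2.70 for Asb2, -7.28 for Hrc, -4.90 for Eno3, -3.59 for Mypn, -3.09 for Tnnc1 and -3.83 for Actn2. The others were 2.71 for Myh6, 7.69 for Serpinc1, -2.29 for Lef1 and -2.54 for Gpnmb. Fitted values of Slc6a5, Cnpy1, Gabra6, Ppp1r17, Serpinc1 and Klhl31 rest on the prior count and are no bounds.

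Dixon's test marked a library far from the others of its group in 16 of 124 groups of values. Chance marks about 1 in 20 where values are independent and normal. These were not independent, since genes were picked by their results and muscle genes moved together. DMM vehicle 32 was the library in 8 of the 16. It was high for Mypn (4.33 CPM), Hspb6 (11.5), Klhl31 (8.81), Pgam2 (22.4), Hrc (11.1), Actn2 (6.22), Eno3 (110.4) and the summed skeletal muscle list (3151 CPM). Naive vehicle 3 was high for Klhl31 (1.86 CPM), Eno3 (28.9) and Adgre1 (43.9). Single values stood apart for Klhl31 in DMM AP20187 60 (0.0617 CPM), Myl3 in naive AP20187 1 (8.61), Slc12a5 in naive AP20187 3 (3.56), Tpm1 in naive AP20187 4 (538) and Actn2 in DMM AP20187 62 (3.48).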

How the results depend on the processing

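The number of genes past the interaction threshold, 26 in the analysis reported, was 215 by DESeq2's Wald test (all 26 among them), 46 by limma voom with sample weights, 61 by limma on log2(FPKM + 1), 10 with the replicate block and 96 with DMM vehicle 63 and 64 only. It stayed within 1.5 times under the other 7 alternatives that keep all libraries or a number series, at 20 to 32. The 1 of these that kept entries without a gene name, and gave the same 26 genes, was chosen after seeing the data, as was leaving DMM vehicle 32 out of the counts of muscle genes in the DMM arm. Leaving out 1 library gave 12 to 56, and 13 libraries moved it by over 1.5 times. It was 16, 13, 12, 16 and 15 without DMM AP20187 58 to 62, 13 without DMM vehicle 63, 16, 17 and 56 without naive AP20187 1, 3 and 5, and 14, 14, 13 and 13 without naive vehicle 1, 2, 4 and 5. The number of passing genes that had naive AP20187 apart was 17, and became 11 with a minimum mean of 1 CPM, 58 by DESeq2, 28 by weighted voom, 35 on FPKM, 9 with the block and 9 to 24 on leaving out a library.

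The DMM arm had 10141 genes by weighted voom, 1172 with DMM vehicle 63 and 64 only and 8373 with 32 to 34 only. Left-out libraries gave 3212 (without DMM AP20187 58) to 7623, with 3393 and 3429 without DMM vehicle 32 and 33. The naive arm had 4259 by DESeq2, 4559 by weighted voom, 3964 on FPKM and 1171 with the block. Left-out libraries gave 964 (without naive AP20187 3) to 3403, with 1155 without naive AP20187 1 and 1336, 1254 and 1269 without naive vehicle 1, 2 and 5. The cause of these differences was not tested.

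Gad2, Hspb6, Myh6 and Myl3 passed under all 31 alternatives. Cbln3, Lef1 and Tpm1 passed under 30, Slc6a5, Cnpy1, Gabra6 and Ppp1r17 under 29, and Klhl31 under 27, while Slc12a5 passed under 9, Serpinc1 under 10, Gad1 under 11 and Grin2c under 12. Over all 26 genes that passed and the 3 macrophage genes, 666 of 894 values kept direction and side of the threshold and 225 missed it. The 3 that changed sign belong to genes that did not pass: Csf1r became 0.40 and Adgre1 0.37 with DMM vehicle 32 to 34 only, and Adgre1 became 0.00 without DMM vehicle 64. Left-out libraries moved the interaction of Adgre1 from -1.01 to 0.00, of Csf1r from -0.85 to -0.00 and of Cd68 from -1.38 to -0.44. Mouse numbers recur only in the naive groups, and same-numbered naive libraries correlated at 0.0267, 0.31, -0.083 and 0.193 for numbers 1, 3, 4 and 5, so the numbers were not taken as pairs. Number 3 alone matched its own number best.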
